A study of Mus musculus with 16 samples.

Results

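The genes described here are 9 transcription factors of the somites and the paraxial mesoderm: Tcf15, Meox1, Meox2, Pax3, Tbx1, Tbx18, Foxc1, Foxc2 and Twist1. They were taken by gene symbol from an RNA-seq table of 33531 genes, in which 8 of the 9 were found, and Foxc2 was not analysed here. Of these 8, 7 reached an FPKM of 1 in at least 2 libraries and were tested among 13955 genes, and Tbx18 did not. FPKM counts fragments per length of transcript and per mapped total, a level corrected for transcript length and library size.

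Somites are blocks of paraxial mesoderm that form beside the neural tube and give rise to the vertebrae, the skeletal muscle of the trunk and the dermis. Their cells also contribute endothelium to the dorsal aorta and the trunk vessels, whereas the vessels of the yolk sac arise from extraembryonic mesoderm. Tcf15 (paraxis) is a bHLH factor needed for somites to become epithelial. Meox1 and Meox2 are homeodomain factors of the somite, and in the mouse heart Meox2 and Tcf15 act together in capillary endothelium. Pax3 marks the dermomyotome, the dorsal neural tube and the neural crest. Tbx1 and Tbx18 are T-box factors, the first of the pharyngeal mesoderm and the sclerotome, the second of the anterior part of each somite and the epicardium. Foxc1 is a forkhead factor of paraxial mesoderm and of developing vessels, and Twist1 is a bHLH factor of mesenchyme that pairs with E proteins.

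The 16 libraries formed 8 groups of 2: endothelial cells (EC) and hemogenic endothelial cells (HE), the endothelium that gives rise to blood, taken from the embryo region or the yolk sac on embryonic days E9.5 and E10.5. All conceptuses came from B6C3F1/J females, superovulated with hormone injections, and males homozygous for the Runx1-GFP reporter allele Runx1tm4Dow, so EC and HE alike carried 1 copy of this allele. EC were sorted as GFP-negative CD31+ kit- cells and HE as GFP-positive CD31+ cells with low or no kit, and both gates left out CD41+ and CD45+ cells. The embryo region was what remained after the head, heart and lung regions, liver, gut, tail and limb buds had been taken off. It comprised the aorta-gonad-mesonephros, umbilical and vitelline vessels and some somite tissue, so somite cells were in the tissue that was digested and sorted. The labels do not say whether animals were pooled or whether the replicates of a group came from separate litters, so p-values reflect only how far these samples spread, and that spread may be technical.

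The FPKM of a library summed to between 586501 and 785252, an FPKM of 1 was reached by 11639 to 12527 genes, and the read depth is unknown. All 12 endothelial markers examined (Pecam1, Cdh5, Kdr, Tek, Tie1, Emcn, Esam, Cldn5, Egfl7, Sox17, Flt1 and Erg) were above 0 in at least 1 library of every group. The E10.5 yolk sac HE libraries stood apart from their label: their endothelial markers summed to an FPKM of 193.6 and 590.1, against 775.3 to 3298 in the other groups. Pecam1, the gene of the sort marker CD31, had 47.63 and 12.57 FPKM there, against 48.76 or more elsewhere. The lowest values elsewhere, 775.3 and 48.76, both came from E9.5 yolk sac HE replicate 2, against 1855 and 110.8 in replicate 1 of that group. That library was thus also low, and the fits without the E10.5 yolk sac HE libraries kept it. Runx1 was higher in both HE libraries than in both EC libraries of each setting except the E10.5 yolk sac, where HE had 2.187 and 2.169 FPKM and EC 2.596 and 2.044. The comparison of the sites over all settings and the interactions with site are therefore also given without both E10.5 yolk sac HE libraries. The site difference within E10.5 HE, and the comparisons of cell type at E10.5 and of stage in HE within the yolk sac, need these libraries and have no value without them.

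Promoter windows are shown for Tbx1, Foxc1 and Twist1, 3 members with high levels in the embryo region that had an entry in the sequence table. Each window runs from 250 bases before to 50 after a transcription start, 300 bases in all, from RefSeq on GRCm38.p6. That build differs from the mm9 of the expression table, so the positions belong to the sequences alone. The table matched 5 members, Meox2 and Tbx18 included, with 2 starts for Tbx1. Capitals mark matches to the E-box CANNTG, which bHLH factors such as Tcf15 and Twist1 bind and which reads alike on both strands, to CCAAT on either strand (ATTGG) and to TATAAA on either strand (TTTATA); no matches overlap.
Tbx1, chr16:18588850-18589149, minus strand: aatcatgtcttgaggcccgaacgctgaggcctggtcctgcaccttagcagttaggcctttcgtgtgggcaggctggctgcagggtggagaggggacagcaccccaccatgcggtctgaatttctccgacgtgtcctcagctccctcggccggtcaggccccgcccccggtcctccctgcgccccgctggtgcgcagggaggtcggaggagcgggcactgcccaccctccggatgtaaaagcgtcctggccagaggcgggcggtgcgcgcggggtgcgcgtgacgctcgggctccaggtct
Tbx1, chr16:18590622-18590921, minus strand: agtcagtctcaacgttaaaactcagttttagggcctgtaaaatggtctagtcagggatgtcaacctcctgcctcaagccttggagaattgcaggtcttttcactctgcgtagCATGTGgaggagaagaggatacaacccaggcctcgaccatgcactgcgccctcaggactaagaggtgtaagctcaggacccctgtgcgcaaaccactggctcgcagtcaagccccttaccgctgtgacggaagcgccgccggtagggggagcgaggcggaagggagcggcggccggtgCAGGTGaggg
Foxc1, chr13:31806396-31806695, plus strand: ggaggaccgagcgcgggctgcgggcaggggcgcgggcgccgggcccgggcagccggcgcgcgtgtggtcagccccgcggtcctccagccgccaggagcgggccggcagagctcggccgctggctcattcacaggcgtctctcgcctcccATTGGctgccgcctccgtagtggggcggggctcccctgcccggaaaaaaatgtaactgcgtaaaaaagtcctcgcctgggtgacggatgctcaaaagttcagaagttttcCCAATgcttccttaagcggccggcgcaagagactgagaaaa
Twist1, chr12:33957421-33957720, plus strand: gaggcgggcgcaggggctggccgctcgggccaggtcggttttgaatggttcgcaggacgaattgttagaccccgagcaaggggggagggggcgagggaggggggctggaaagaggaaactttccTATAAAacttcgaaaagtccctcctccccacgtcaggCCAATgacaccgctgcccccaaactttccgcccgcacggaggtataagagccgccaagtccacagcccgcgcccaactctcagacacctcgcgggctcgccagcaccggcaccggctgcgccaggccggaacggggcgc

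The Foxc1 window was 67.3% G and C and held 32 CG pairs and 2 CCAAT matches. The Twist1 window was 66.0% G and C, with 27 CG pairs, 1 CCAAT match and 1 TATAAA match. Of the Tbx1 windows, the one at 18588850 held 26 CG pairs and none of the searched motifs, and the other held 16 CG pairs and 2 E-boxes. Over all 32544 windows of the table, the median was 53.0% G and C and 7 CG pairs, 72.3% held an E-box, 37.4% a CCAAT match and 13.6% a TATAAA match. The Foxc1 window had more CG pairs than 90.4% of all windows, that of Twist1 more than 84.4%, and those of Tbx1 more than 83.0% and 66.8%, while the motifs differed between them.

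Among the somite factors proper, Tcf15 reached the highest FPKM of any member. In the embryo region it was 31.95 and 22.51 in E9.5 EC, 39.10 and 32.18 in E9.5 HE, 60.31 and 59.86 in E10.5 EC, and 51.20 and 42.24 in E10.5 HE. In the yolk sac it was 4.91 and 2.25 in E9.5 EC, 3.16 and 4.05 in E9.5 HE, 4.99 and 3.74 in E10.5 EC, and 1.495 and 0.107 in E10.5 HE. Every embryo library lay above every yolk sac library, and the 4 embryo groups did not overlap each other, in the order E10.5 EC, E10.5 HE, E9.5 HE and E9.5 EC. The 3 upper yolk sac groups overlapped their neighbours, and E10.5 yolk sac HE lay below them.

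Meox1 showed the same separation of the sites at lower levels. In the embryo region it reached 7.83 and 4.11 FPKM in E9.5 EC, 18.07 and 13.64 in E9.5 HE, 8.91 and 13.77 in E10.5 EC, and 17.67 and 16.32 in E10.5 HE. Yolk sac values were 1.16 and 0.163 in E9.5 EC, 0.409 and 1.14 in E9.5 HE, 0.116 and 0.389 in E10.5 EC, and 0.0899 and 0 in E10.5 HE. Both HE groups of the embryo region had higher means than both EC groups. The neighbours E10.5 HE and E9.5 HE overlapped, as did E9.5 HE and E10.5 EC.

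Meox2, the second Meox gene, was low everywhere. Its FPKM in the embryo region was 0.471 and 0.324 in E9.5 EC, 0.986 and 0.380 in E9.5 HE, 0.826 and 1.25 in E10.5 EC, and 1.52 and 0.984 in E10.5 HE. In the yolk sac it was 0.106 and 0.156 in E9.5 EC, 0.0646 and 0.178 in E9.5 HE, 0.266 and 0.407 in E10.5 EC, and 0.590 and 0.552 in E10.5 HE. The sites overlapped: both E10.5 yolk sac HE libraries lay above both E9.5 embryo EC libraries. E10.5 yolk sac EC replicate 2 (0.407) also lay above replicate 2 of E9.5 embryo EC (0.324) and of E9.5 embryo HE (0.380).

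Pax3 was low but separated. It measured 0.846 and 0.559 FPKM in E9.5 embryo EC, 1.69 and 1.46 in E9.5 embryo HE, 0.937 and 1.34 in E10.5 embryo EC, and 1.62 and 3.06 in E10.5 embryo HE. No yolk sac library exceeded 0.217 FPKM, and 2 of the 8 were listed at 0. As with Meox1, both embryo HE groups had higher means than both embryo EC groups, with overlap between the 2 HE groups and none between E9.5 HE and E10.5 EC.

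Of the T-box factors, Tbx1 had the largest ratio of mean FPKM between the sites of all members. In the embryo region it measured 13.96 and 12.50 FPKM in E9.5 EC, 11.86 and 10.60 in E9.5 HE, 37.95 and 35.05 in E10.5 EC, and 26.79 and 22.10 in E10.5 HE. Yolk sac libraries had 0.682 and 0.253 in E9.5 EC, 0.309 and 0.290 in E9.5 HE, 0.525 and 0.388 in E10.5 EC, and 0.151 and 0 in E10.5 HE. The 4 embryo groups did not overlap, and both E10.5 groups lay above both E9.5 groups. Tbx18 had no library at an FPKM of 1: its embryo libraries spanned 0.233 to 0.793 FPKM with a median of 0.421. Its yolk sac libraries spanned 0 to 0.161 FPKM, below every embryo library, and 3 of the 8 were listed at 0.

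Foxc1 measured 15.13 and 15.28 FPKM in E9.5 embryo EC, 11.97 and 11.64 in E9.5 embryo HE, 21.32 and 27.06 in E10.5 embryo EC, and 17.14 and 22.03 in E10.5 embryo HE. Its yolk sac values were 1.77 and 0.615 in E9.5 EC, 1.02 and 1.09 in E9.5 HE, 1.35 and 0.681 in E10.5 EC, and 0.789 and 0.401 in E10.5 HE. Its order in the embryo region was that of Tbx1, with E10.5 EC highest and E9.5 HE lowest, except that the E10.5 groups overlapped. The 4 yolk sac groups overlapped their neighbours in order.

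Twist1 was the one member present at more than 6 FPKM in every library. Its FPKM was 28.04 and 29.46 in E9.5 embryo EC, 36.31 and 33.54 in E9.5 embryo HE, 19.41 and 35.29 in E10.5 embryo EC, and 43.80 and 43.11 in E10.5 embryo HE. Yolk sac EC and HE had lower values, 20.82 and 15.64 in E9.5 EC, 17.04 and 12.64 in E9.5 HE, 6.50 and 10.72 in E10.5 EC, and 8.94 and 8.84 in E10.5 HE. The sites overlapped at a single point, where the higher E9.5 yolk sac EC library passed the lower E10.5 embryo EC library.

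**Figure D1:**
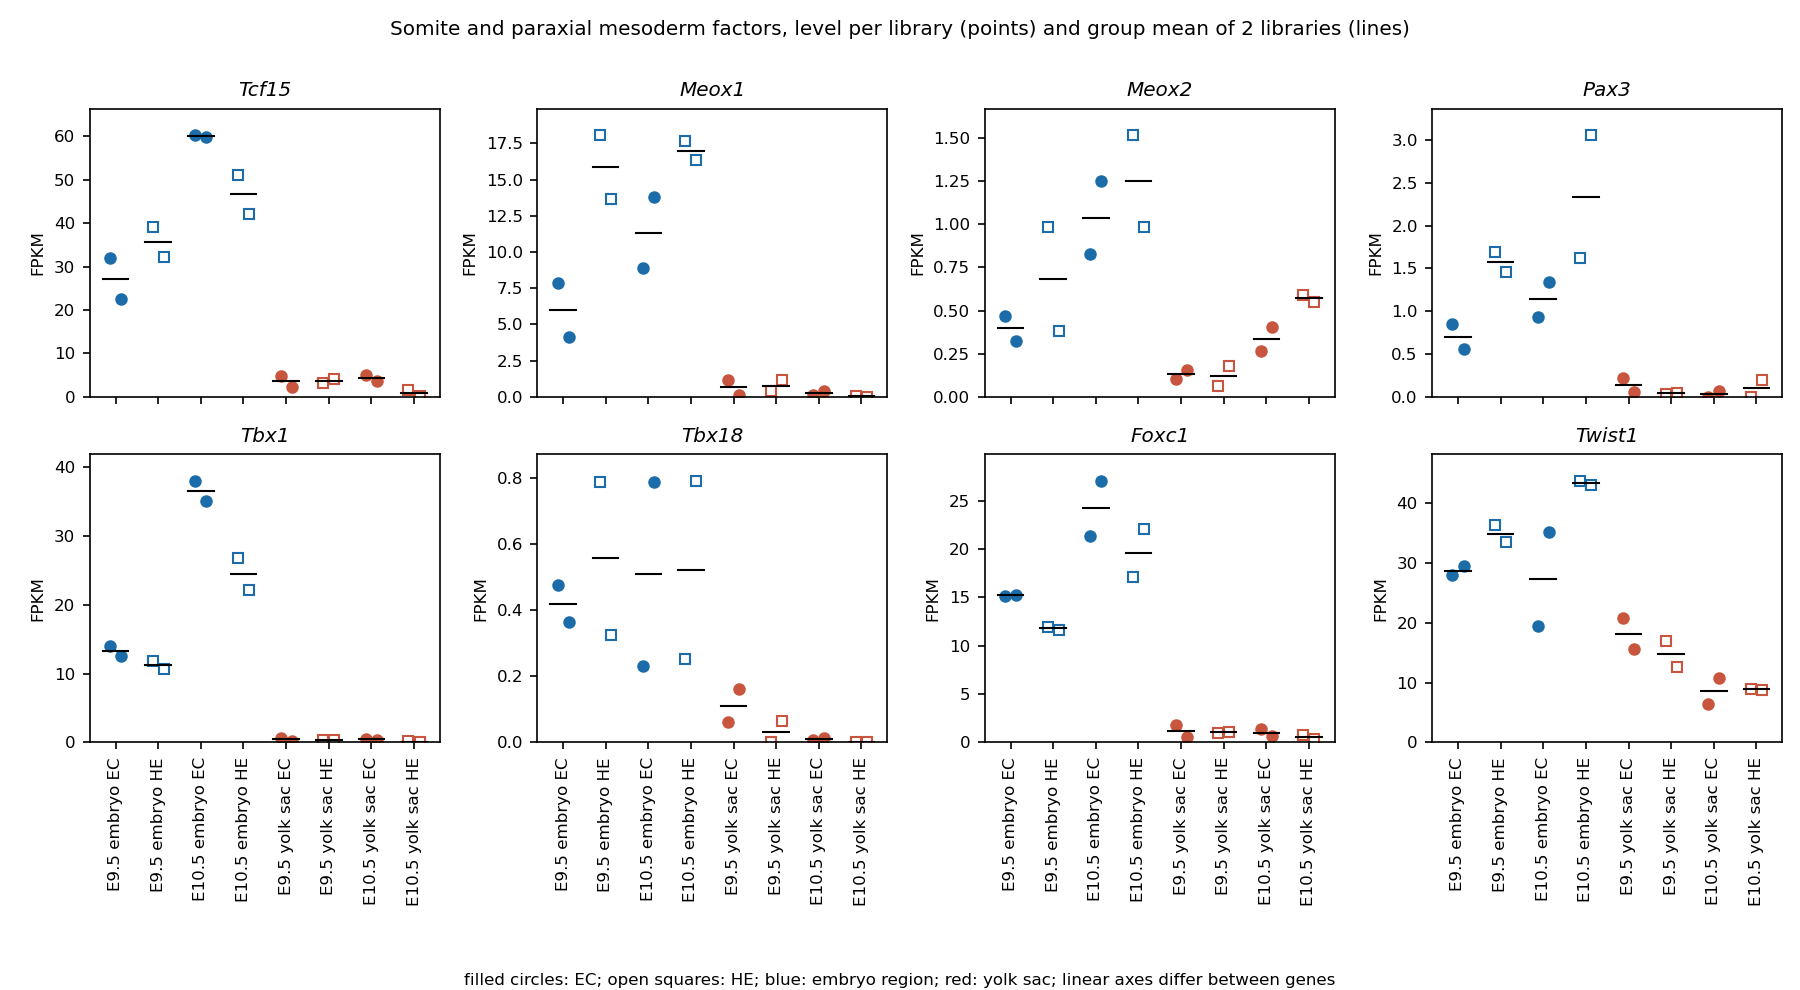
FPKM of the 8 members found (vertical axes, linear and different between genes) in each of the 8 groups; points are libraries, lines are means of 2, filled circles are EC, open squares HE, blue the embryo region and red the yolk sac. Tcf15, Meox1, Pax3, Tbx1, Tbx18 and Foxc1 have every blue point above every red one, whereas Meox2 and Twist1 overlap.

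Endothelium of the yolk sac was compared with that of the embryo region. All 7 members tested were lower in the yolk sac over the 4 settings of stage and cell type (limma with Benjamini-Hochberg adjustment over all 13955 genes, adjusted p under 0.05). Of all tested genes, 51% were called in this comparison and 30.8% were called lower in the yolk sac, so the count alone is read against a large background. Tbx1, Pax3 and Meox2 passed the filter on low values through embryo libraries alone, so the count of members that passed supports nothing further. By the size of the difference, with all 13955 genes ranked from the lowest difference, Tbx1 was at place 6, Tcf15 at 10, Foxc1 at 14 and Meox1 at 15. The members were chosen with earlier results of these data known, so these places are a description and not read as support either. In this bulk RNA, fewer cells with a transcript and less transcript per cell cannot be told apart.

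Tbx1 differed by -3.94 ± 0.10 (SE, 8 libraries a site) in log2(FPKM + 1), yolk sac minus embryo, with an adjusted p of 2.118e-10. Its mean FPKM was 21.35 in the embryo region and 0.325 in the yolk sac, a ratio of 65.7. Tcf15 differed by -3.50 ± 0.18 (adjusted p = 3.582e-08) and Foxc1 by -3.23 ± 0.14 (adjusted p = 7.236e-09), with ratios of mean FPKM of 13.7 and 18.4. Meox1 differed by -3.18 ± 0.18 (adjusted p = 6.647e-08), with mean FPKM of 12.54 and 0.434.

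The other members tested differed less. Twist1 differed by -1.39 ± 0.14 (adjusted p = 7.19e-06) and held place 321, with mean FPKM of 33.62 in the embryo region and 12.64 in the yolk sac. Pax3 differed by -1.13 ± 0.12 (adjusted p = 9.49e-06), a value held down by the 1 added to low FPKM, since its ratio of means was 18.5. Meox2 differed by -0.49 ± 0.11 (adjusted p = 0.002726), and its ratio of means was 2.90. Tbx18, which entered only when genes with low values were also fitted, gave -0.52 ± 0.10 (adjusted p = 0.002847). In that fit 7771 of 21715 genes were called, 4726 of them lower in the yolk sac. Tbx18 was not called in any single setting there (limma, adjusted p between 0.0657 in E10.5 HE and 0.436 in E9.5 EC). For Tcf15, Meox1, Tbx1, Pax3 and Foxc1 every yolk sac library was below every embryo library, an arrangement found in 6.27% of the tested genes. Tbx1 and Pax3 passed the filter through embryo libraries alone, which favours this arrangement, so its count among the members is not read as support.

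The difference held its direction in each stage and cell type. In E9.5 EC, where 10.3% of genes were called, 4 members were lower, with differences of -3.29 ± 0.20 for Tbx1, -2.94 ± 0.27 for Foxc1, -2.67 ± 0.36 for Tcf15 and -2.08 ± 0.36 for Meox1 (adjusted p between 5.403e-06 for Tbx1 and 0.003286 for Meox1). In that setting Pax3 gave -0.58 (adjusted p = 0.142), Twist1 -0.64 (adjusted p = 0.174) and Meox2 -0.30 (adjusted p = 0.469). In the other settings 6 members were lower each time, with 13% of genes called in E9.5 HE, 29.5% in E10.5 EC and 35.2% in E10.5 HE. Meox2 was the exception in each, at -0.56 (adjusted p = 0.122), -0.60 (adjusted p = 0.0571) and -0.51 (adjusted p = 0.0909). Several of the weaker calls depended on single libraries. Meox1 in E9.5 EC was lost without embryo replicate 1 (adjusted p = 0.0514). Twist1 in E9.5 HE was lost without embryo replicate 1 (0.0898) or 2 (0.0638) or yolk sac replicate 2 (0.113). Pax3 in E10.5 EC was lost without embryo replicate 2 (0.0522). The largest single value was that of Tcf15 in E10.5 HE, -4.84 ± 0.36 (adjusted p = 3.999e-06). It rests on the E10.5 yolk sac HE libraries, whose endothelial markers were low and whose Tcf15 values were 1.495 and 0.107 FPKM. Tbx1 gave -4.69 ± 0.20 in E10.5 EC (limma, adjusted p = 9.723e-08), where those libraries are not compared.

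**Figure D2:**
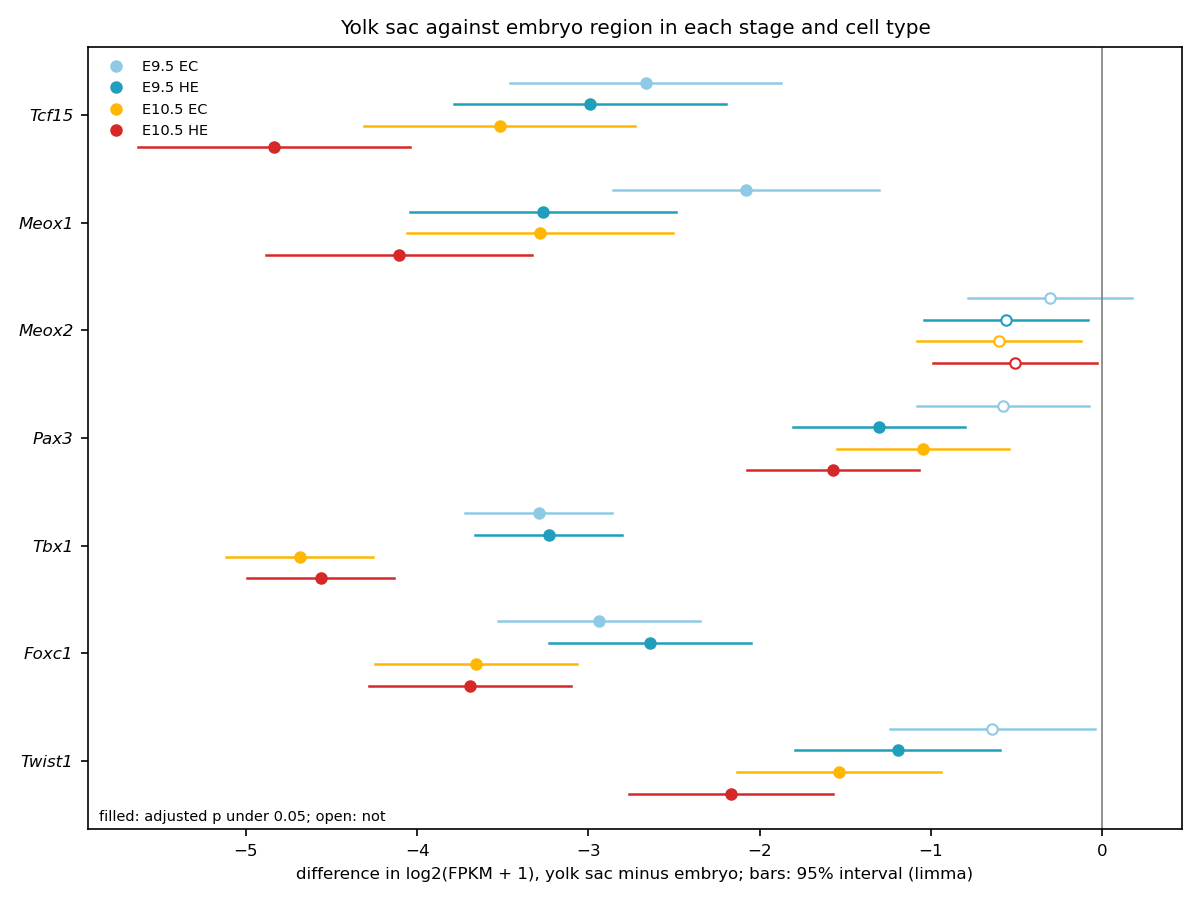
Difference in log2(FPKM + 1), yolk sac minus embryo region (horizontal axis), for the 7 members tested in each of the 4 settings; bars are 95% intervals from limma, not adjusted for the number of genes, and filled points have an adjusted p under 0.05. All values lie below 0, from -4.84 for Tcf15 in E10.5 HE to -0.30 for Meox2 in E9.5 EC, and the 4 Meox2 points and the E9.5 EC points of Pax3 and Twist1 are open. The E10.5 HE points rest on yolk sac libraries with low endothelial markers.

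Without both E10.5 yolk sac HE libraries, all 7 members remained lower in the yolk sac over the 3 settings left. In that fit 5967 of 13787 genes were called, 3400 of them lower in the yolk sac, so this count too is read against a large background. Tbx1 then differed by -3.74 (adjusted p = 6.541e-09), Foxc1 by -3.08 (adjusted p = 1.033e-07), Tcf15 by -3.06 (adjusted p = 1.455e-07) and Meox1 by -2.88 (adjusted p = 1.925e-06). Scaling the libraries by median ratios moved the median of all genes in the site comparison by 0.0925, in E10.5 EC by 0.114 and in E10.5 HE by 0.179, towards higher values in the yolk sac. It also changed the split of all called genes from 2815 higher and 4300 lower to 3392 higher and 3220 lower, while the call on each of the 7 members stayed.

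Most tested genes that surround these factors in somite development were also lower in the yolk sac over all settings. Of 11 tested genes of the presomitic mesoderm and segmentation, 9 were lower in the yolk sac and 1 was higher, with a median difference of -0.76 against -0.12 over all tested genes. The largest falls were T (Brachyury), the T-box factor of nascent mesoderm (-2.33), Cyp26a1, which degrades retinoic acid (-2.26), and Dll3, a Notch ligand-like protein of segmentation (-2.09). Ripply1, a repressor at the segment border, was the higher one, at +1.59 (mean FPKM 5.982 in the yolk sac, 1.03 in the embryo region). All 8 tested genes of somite polarity, sclerotome and tendon were lower, led by the sclerotome factors Pax1 (-2.28) and Uncx (-1.98) and by Sox9 of cartilage precursors (-1.66), with a median of -1.16. All 9 tested genes of dermomyotome and myotome were lower, led by Eya2 (-1.89), the myogenic factor Myog (-1.62) and Dmrt2 (-1.18), with a median of -0.68. Without both E10.5 yolk sac HE libraries, 8 presomitic genes, 8 sclerotome genes and 8 dermomyotome genes were lower, and Ripply1 again was the 1 higher gene. Some of these genes also passed the filter through embryo libraries alone, Pax1 and Myog among them. Over all tested genes, 30.8% were called lower with all libraries and 3400 of 13787 without E10.5 yolk sac HE. The list counts are therefore not read as support. In E9.5 EC, 5 of 11 presomitic, 2 of 8 sclerotome and 2 of 9 dermomyotome genes were lower. In E10.5 EC these counts were 4, 7 and 5, with a presomitic median of -0.22 against -0.16 over all tested genes.

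Relatives of the members did not share one direction. Of 8 tested T-box, forkhead, Meox and Twist relatives, the yolk sac was higher in Tbx20 (+1.92) and Foxf2 (+0.90) and lower in Foxd1 (-2.36) and Tbx3 (-0.82). Among 9 bHLH partners and inhibitors, 6 were lower and 2 higher in the yolk sac. The lower ones included Tcf3, the E protein partner of Twist1 (-0.91), and the inhibitors Id3 (-1.68) and Id1 (-0.98). The higher ones were Hand1 (+1.22) and Hand2 (+1.21), bHLH factors of lateral and extraembryonic mesoderm. Of 10 endothelial genes reported to respond to Foxc factors, 5 were lower, led by the Notch target Hey1 (-2.79), Pdgfb (-1.89) and the connexin Gja4 (-1.43), and 1, the integrin Itgb3, was higher (+0.58). This count differed between the settings: 2 of 10 were lower in E9.5 EC (median +0.07) and 2 in E10.5 EC (median -0.05), against 3 in E9.5 HE (median -1.11) and 8 in E10.5 HE (median -1.75). Without both E10.5 yolk sac HE libraries, whose endothelial markers were low, 4 were lower and 2, Itgb3 and Angpt2, were higher. Those libraries also bear on the other lists: without them 3 relatives were higher and 2 lower, and of the bHLH partners 6 were lower and 1, Hand2, was higher.

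Markers of other cells differed between the sites as well. Of all tested genes 51% were called between the sites and 30.8% were called lower in the yolk sac. A gene can also pass the filter on low values through the libraries of 1 site alone, which favours such a call. The counts of markers below are therefore a description and not read as support. Visceral endoderm markers were higher in the yolk sac for 9 of 10 genes, with sums of 1471 to 7444 FPKM there and 8.103 to 103.9 in the embryo region. Neural tube markers were lower in the yolk sac for 7 of 8 genes tested, with sums of 9.044 to 35.9 against 49.11 to 99.87 FPKM, and Sox2, Pax6, Olig2, Elavl3 and Elavl4 stood at 0 in E10.5 yolk sac HE. Neural crest markers were lower for 6 of 6, with sums of 1.211 to 4.778 against 5.483 to 20.39 FPKM, and muscle markers for 6 of 7, with sums of 20.67 to 47.83 against 27.43 to 184.4. Of 11 tested genes of intermediate and lateral plate mesoderm, 7 were lower and 2 higher. Mesenchyme and pericyte markers were higher in the yolk sac for 6 of 12 and lower for 1, Rgs5, and their sums there were 850.6 to 8179 against 235.8 to 2267 FPKM. Without both E10.5 yolk sac HE libraries, muscle markers were lower for 2 of 7, intermediate and lateral plate genes for 6 of 11 with 1 higher, and mesenchyme markers higher for 7 of 12. In the same fit 9 endoderm markers were higher, and 7 neural tube and 6 neural crest markers lower, as with all libraries. Their part in the differences of the members was not tested.

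Endothelial markers were lower in the yolk sac for 9 of 12 over all settings, with a median of -0.995. Without both E10.5 yolk sac HE libraries 1 of 12 was lower, with a median of -0.31. In E9.5 EC none of the 12 was called, with a median of +0.15 and sums of 1691 to 3097 FPKM in the yolk sac and 2182 to 2480 in the embryo region.

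**Figure D3:**
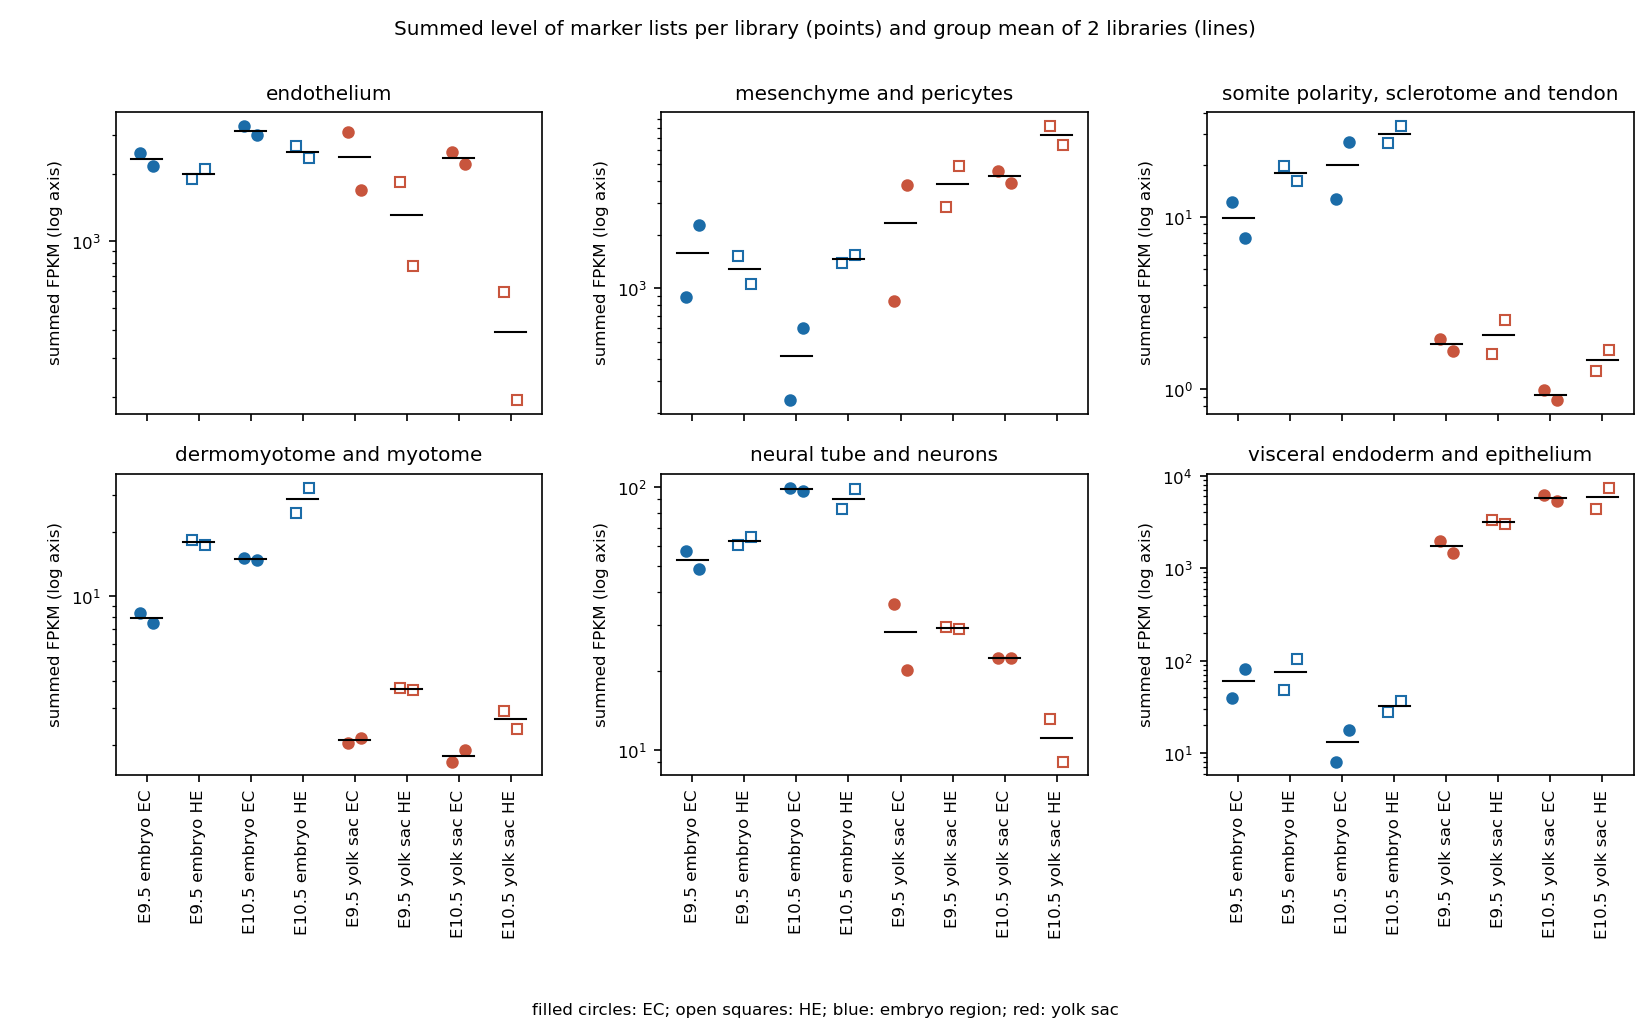
Summed FPKM of 6 marker lists (vertical axes, logarithmic) by group; points are libraries, lines means of 2, filled circles EC, open squares HE, blue the embryo region and red the yolk sac. Somite lists and neural markers are higher in every embryo library, visceral endoderm markers in every yolk sac library, and the endothelial sum is lowest in E10.5 yolk sac HE, at 193.6 and 590.1 FPKM.

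HE were then compared with EC. In the embryo region 0 of the 7 members were called at either stage by limma. Few genes were: 0.158% at E9.5 and 0.208% at E10.5, with 1225 and 1029 genes at an unadjusted p under 0.05. Meox1 gave the largest value of a member at E9.5, +1.31 ± 0.36 (HE minus EC, adjusted p = 0.254), with both HE libraries above both EC libraries. At E10.5 it gave +0.57 (adjusted p = 0.871). Pax3 gave +0.60 ± 0.23 at E9.5 (adjusted p = 0.491) and +0.61 ± 0.23 at E10.5 (adjusted p = 0.501), again with no overlap. Groups without overlap in either direction were found for 56.4% of all tested genes at E9.5 and 35.9% at E10.5, so this is a common arrangement with 2 libraries a group.

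The remaining members fell on both sides of 0 in the embryo region. Twist1 gave +0.27 at E9.5 and +0.71 ± 0.27 at E10.5 (adjusted p = 0.537). Tbx1 gave -0.22 and -0.56 ± 0.20 (adjusted p = 0.458), and Foxc1 -0.34 and -0.29, so for these both stages had lower values in HE. Meox2 gave +0.25 and +0.14 (adjusted p = 0.776 and 0.992), with overlapping groups. Tcf15 gave +0.39 at E9.5 and -0.36 at E10.5, with separated groups both times. The test of the difference between the stages gave -0.75 ± 0.51 for Tcf15 (adjusted p = 1), a comparison added after its values were seen, with the largest other values -0.74 for Meox1 and +0.44 for Twist1, in which 0 members and 0.0215% of genes were called and 354 genes had an unadjusted p under 0.05.

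Hemogenic and blood markers were drawn from Runx1, Gfi1, Spi1, Myb, Itga2b, Ptprc and Kit. Of 6 tested, 3 were higher in embryo HE at E9.5 and 2 at E10.5, with medians of +2.05 and +0.84. Runx1 carried the sort reporter, and kit, CD41 (Itga2b) and CD45 (Ptprc) were gated on, so these counts partly restate the sort. In yolk sac HE 0 of 6 were higher at either stage, and 1 was lower at E10.5, with medians of +0.75 at E9.5 and -0.10 at E10.5. Other markers moved with these comparisons. At E10.5 the mesenchyme and pericyte markers summed to 1382 and 1537 FPKM in embryo HE and to 235.8 and 594.9 in embryo EC, all 12 were above 0 in HE minus EC with a median of +1.90, and 1, Cspg4, was called. Genes of dermomyotome and myotome were above 0 in 9 of 9 at E10.5 and in 8 of 9 at E9.5, with medians of +0.41 and +0.38 and none called. Genes of somite polarity, sclerotome and tendon were above 0 in 8 of 8 and 7 of 8, with medians of +0.53 and +0.42 and none called. At E9.5 mesenchyme markers were above 0 in 6 of 12, with a median of +0.02. Other lists leaned to HE too, with none called. Above 0 at E9.5 and E10.5 were 6 and 6 of 6 neural crest, 9 and 11 of 11 intermediate and lateral plate, 10 and 8 of 11 presomitic, and 7 and 5 of 8 neural tube genes. Endothelial markers were below 0 in 10 and 12 of 12. The median over all tested genes was +0.03 at each stage. The part of all these genes in the values of Meox1, Pax3 and Twist1 was not tested.

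In the yolk sac, 0 members were called at E9.5, where 0.0143% of genes were called and 1336 genes had an unadjusted p under 0.05. The members lay between -0.28 for Twist1 and +0.13 for Meox1 there. At E10.5, with 9.57% of genes called, Tcf15 was called: it fell in HE by 1.68 ± 0.36 (limma, adjusted p = 0.01779), from 4.99 and 3.74 FPKM in EC to 1.495 and 0.107 in HE. The other members lay between -0.44 for Tbx1 (adjusted p = 0.177) and +0.24 for Meox2. All 12 endothelial markers fell in the same comparison, with a median of -2.63, and mesenchyme markers had a median of +1.05. The call on Tcf15 was lost without HE replicate 2 (-1.09, adjusted p = 0.136), without EC replicate 1 (adjusted p = 0.0985) and without EC replicate 2 (adjusted p = 0.0528). It was also lost when the fit held these groups alone (adjusted p = 0.262).

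The test of whether HE against EC differed between the sites called 0 members and 0.107% of genes, with 1725 genes at an unadjusted p under 0.05. Meox1 gave -1.005 ± 0.36 (yolk sac minus embryo region, adjusted p = 0.281), Tcf15 -0.82 ± 0.36 (adjusted p = 0.384) and Pax3 -0.63 ± 0.23 (adjusted p = 0.302). The others lay between -0.59 for Twist1 and +0.13 for Foxc1. At E9.5 alone, fitted without both E10.5 yolk sac HE libraries, 0 members and 0 genes were called by limma (688 genes at an unadjusted p under 0.05), with Meox1 at -1.18, Pax3 at -0.72 and Tcf15 at -0.33 (adjusted p = 0.984 for each).

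Stage was compared within each site and cell type. In embryo EC, Tbx1 was the 1 member called, where 1.7% of genes were: it rose from 13.96 and 12.50 FPKM at E9.5 to 37.95 and 35.05 at E10.5, a difference of +1.40 ± 0.20 (adjusted p = 0.005237). In embryo HE, with 1.46% of genes called, Tbx1 again was the 1 member: it rose from 11.86 and 10.60 to 26.79 and 22.10 FPKM, by +1.05 ± 0.20 (adjusted p = 0.01964). Both calls rest on the spread pooled over all groups and were lost with a pseudocount of 0.1 (adjusted p = 0.168 and 0.351) and with the compared groups alone (adjusted p = 0.114 and 0.147). The call in EC was also lost without E9.5 replicate 1 (0.0505) or replicate 2 (0.0905) or E10.5 replicate 1 (0.0789), and that in HE without any 1 of its 4 libraries (0.0849 to 0.168).

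The other members of the embryo region had values above 0 except Twist1 in EC, without a call. Tcf15 gave +1.13 ± 0.36 in EC (adjusted p = 0.187) and +0.38 in HE (adjusted p = 0.738). Foxc1 gave +0.63 and +0.68 ± 0.27 (adjusted p = 0.400 and 0.321), and Meox1 +0.85 and +0.11 (adjusted p = 0.377 and 0.952). Twist1 gave -0.13 in EC and +0.31 in HE. Meox2 gave +0.54 and +0.43 ± 0.22 (adjusted p = 0.354 and 0.460), and Pax3 +0.33 and +0.34 ± 0.23 (adjusted p = 0.733 and 0.600). For Foxc1 and Tcf15 both E10.5 libraries lay above both E9.5 libraries in each cell type, as in 22.2% of tested genes in EC and 24.1% in HE.

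Somite genes around the members changed with stage in both directions. Cyp26a1 fell by 2.50 in embryo EC and fell by 2.61 in embryo HE, and the presomitic factors Hes7 (-1.57) and Tbx6 (-1.505) fell in HE, which makes 1 of 11 presomitic genes lower in EC and 3 of 11 in HE. Myog rose by 2.00 in EC and 3.14 in HE, and Myf6, another myogenic factor, by 1.28 in HE. Of 7 tested muscle genes, 2 rose in EC and 4 in HE, Myl1 (+2.57) and Actc1 (+2.64) among them. Summed muscle markers in the embryo region were 27.43 to 34.98 FPKM at E9.5, and 46.5 to 69.87 in EC and 135.9 to 184.4 in HE at E10.5. Neural tube markers summed to 49.11 to 64.71 FPKM at E9.5 and 82.62 to 99.87 at E10.5. The part of these cells in the rise of Tbx1 was not tested.

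**Figure D4:**
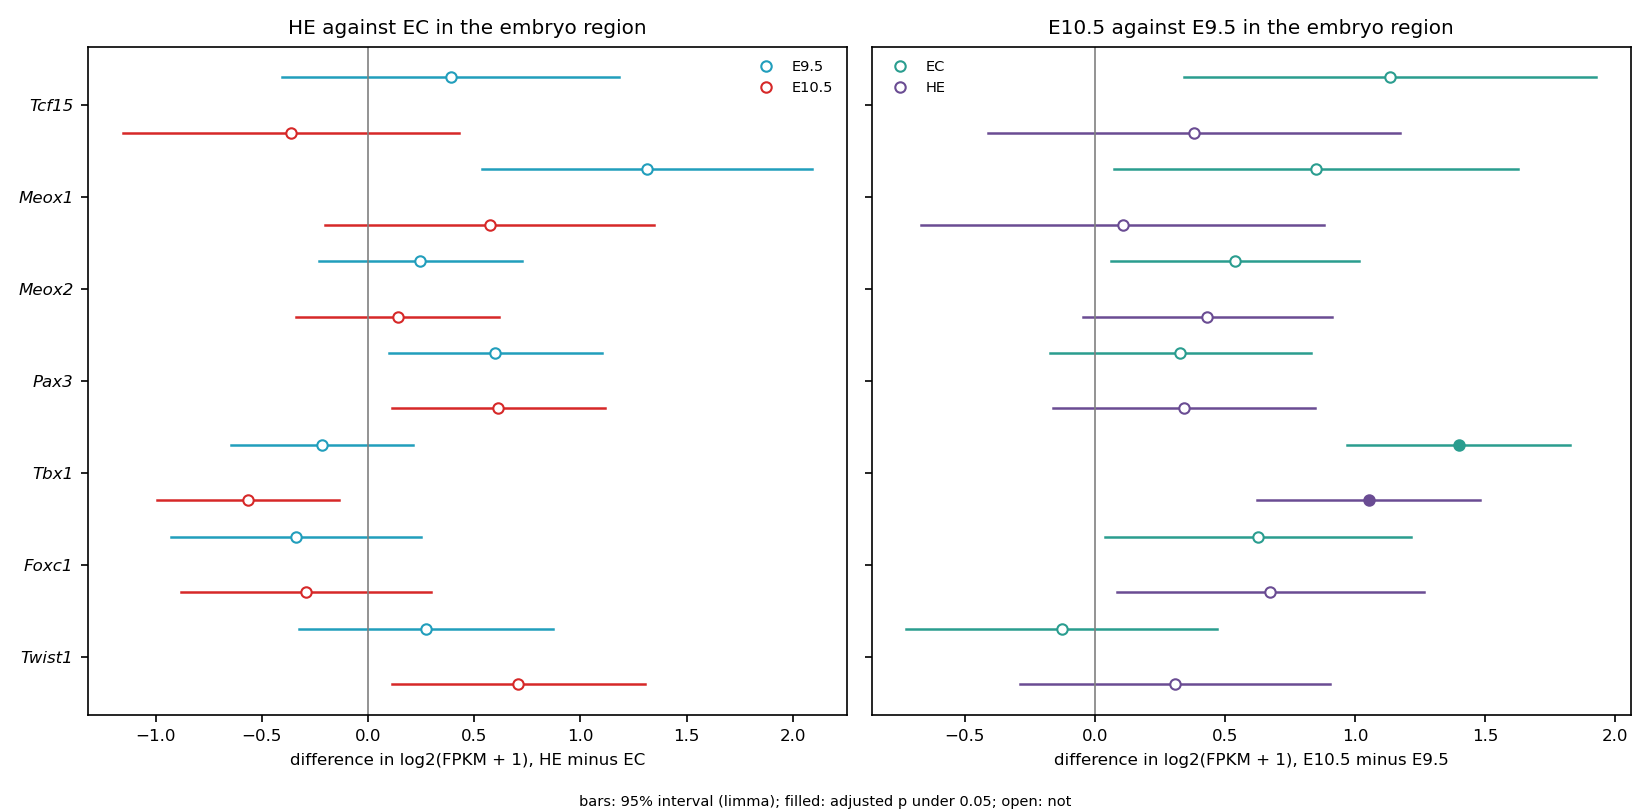
Differences in log2(FPKM + 1) within the embryo region for the 7 members tested: HE minus EC at each stage on the left, E10.5 minus E9.5 in each cell type on the right; bars are 95% intervals from limma, not adjusted for the number of genes, and filled points have an adjusted p under 0.05. The filled points are those of Tbx1 between stages, at +1.40 in EC and +1.05 in HE.

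Between stages of the yolk sac 0 members were called. Of all genes 1.25% were called in EC and 2.03% in HE, and 2419 and 3261 genes had an unadjusted p under 0.05. Apart from Twist1, the members lay between -0.35 for Meox1 and +0.28 for Tcf15 in EC. In HE, Twist1 and Tcf15 aside, they lay between -0.73 for Meox1 and +0.49 for Meox2. Twist1 gave -1.02 ± 0.27 in EC (adjusted p = 0.0977), from 20.82 and 15.64 FPKM to 6.50 and 10.72, and -0.67 in HE (adjusted p = 0.171). Without E10.5 EC replicate 2 the value in EC was -1.34 (adjusted p = 0.0415). Tcf15 gave -1.46 ± 0.36 in HE (adjusted p = 0.0552), a comparison that rests on the E10.5 yolk sac HE libraries. Without replicate 1 of these it gave -2.05 (adjusted p = 0.00610). Without either E9.5 yolk sac EC library, which leaves the compared groups as they were but changes the pooled spread and the set of tested genes, the adjusted p was 0.0412 and 0.0413.

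The test of whether the change with stage differed between the sites called 1 member, Tbx1, with 5.34% of genes called. Tbx1 gave -1.36 ± 0.20 (yolk sac minus embryo region, adjusted p = 0.004847): it rose in the embryo region in both cell types, while no yolk sac library passed 0.682 FPKM at either stage. At such levels log2(FPKM + 1) can change little, so the interaction largely restates the rise in the embryo region. In EC alone, fitted without both E10.5 yolk sac HE libraries, Tbx1 gave -1.40 (adjusted p = 0.0412) and was again the 1 member called. Tcf15 gave -1.35 ± 0.36 (adjusted p = 0.0537), Meox1 -1.02 ± 0.36 (adjusted p = 0.114), Twist1 -0.93 ± 0.27 (adjusted p = 0.0724) and Foxc1 -0.88 ± 0.27 (adjusted p = 0.0807). Pax3 gave -0.37 and Meox2 -0.12. In EC alone, Tcf15 gave -0.85 (adjusted p = 0.389), Meox1 -1.20 (0.360), Twist1 -0.90 (0.376) and Foxc1 -0.72 (0.454). The count was 4 without E9.5 yolk sac EC replicate 2, 3 without E10.5 yolk sac HE replicate 1, and 2 without E10.5 embryo EC replicate 1 or E10.5 yolk sac EC replicate 2. The number of all genes called also varied widely across the alternatives, as given in the closing section. These counts, with that of the fit in EC alone, are therefore not read as results about the members. Comparisons of cell type and of stage within a site use the same libraries in turn, so their values are set side by side and not counted as separate support.

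Across all 16 libraries the members other than Meox2 tracked each other and other genes of the embryo region. This is described without a test because the points share the difference between the sites. Meox2 tracked the other members less, with r from 0.542 for Twist1 to 0.751 for Pax3. Tbx1 and Foxc1 were the closest pair of members (Pearson r = 0.991 over 16 libraries, 0.887 over the 8 embryo libraries, in log2(FPKM + 1)). The gene most like both was Fzd10, a Wnt receptor (r = 0.994 with Tbx1, 0.993 with Foxc1), at 16.51 to 42.12 FPKM in the embryo region and at most 0.468 in the yolk sac. Next came Zic2 for Tbx1 (r = 0.991) and Ebf3 for Foxc1 (r = 0.991). Meox1 was most like Aldh1a2, the enzyme that makes retinoic acid in mesoderm (r = 0.989), and Hoxb9 (r = 0.987). Within the embryo region Meox1 and Pax3 kept r = 0.835, whereas Meox1 and Foxc1 had 0.0454 and Tbx1 and Twist1 -0.154.

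The other members had nearest genes of other kinds. Tcf15 was most like the Notch ligand gene Jag2 (r = 0.984) and Vipas39 (r = 0.981). Pax3 was most like the neural factor Pou3f3 (r = 0.981) and Ntn1, which encodes the guidance protein netrin (r = 0.978). Twist1 was most like Vopp1 (r = 0.956) and Ctnnb1, which encodes beta-catenin (r = 0.944). Meox2 had the weakest matches, Zfp827 (r = 0.897) and Eva1a (r = 0.877), and its own level passed 1 FPKM in 2 libraries.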

How the data were processed

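RNA was measured in 16 libraries of sorted mouse endothelial cells, grouped by stage, site and cell type as the labels give them. The authors deposited 1 table of FPKM values by gene symbol and library; Cufflinks, featureCounts and the build mm9 are named per the submitters' processing notes, without versions or roles. Aligner, annotation and strand setting are among details not given in the sources used here. Because FPKM is relative within a library, abundant genes can shift the others, and a low value carries no known read count. Steps between low values gave a clear relative depth for 6 of 15 libraries, at 0.753 to 0.979 times the reads of the library they were compared with; 9 gave none.

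The filter required an FPKM of 1 or more in 2 or more libraries, which kept 13955 genes and left out 19576. Values were transformed as log2(FPKM + 1), so differences understate the change of low genes. A group-means model over the 16 libraries was run in limma 3.58.1 (R 4.3.3) with an intensity trend (residual degrees of freedom 8, prior 3.68), and p-values were two-sided and adjusted by Benjamini-Hochberg over all tested genes within each comparison, with a threshold of 0.05. The fit was tested on simulated data. Every member tested was named or lies in a stated range, and of each gene list at most the 3 largest calls in each direction. Lists covered somite, sclerotome, dermomyotome and presomitic genes, relatives and partners of the members, and markers of endothelium, hemogenic endothelium, mesenchyme, muscle, neural tube, neural crest, other mesoderm and visceral endoderm. Members and lists were chosen with earlier results of these data known. For likeness, the 2 genes with the highest Pearson r to a member over the libraries were named.

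Alternatives were a pseudocount of 0.1, no filter on low values, a replicate block, median ratio scaling, fits to the compared groups alone, and fits without single libraries or without both E10.5 yolk sac HE libraries. The last, for the gene lists and the interactions with site, were added after seeing the data. Promoter sequences came from RefSeq (GRCm38.p6). Sort buffer and DNase treatment varied between samples per the labels' protocols, without saying which sample had which, so these could not be tested as batches.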

Additional observations from a re-analysis of the deposited data

Results flagged for a closer look

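For 1 member the test itself found a difference between the sites: the change of Tbx1 from E9.5 to E10.5 differed by -1.36 (log2(FPKM + 1), yolk sac minus embryo region), with yolk sac levels of at most 0.682 FPKM, so that the value largely restates the rise in the embryo region. For the following, every sample moved one way in the yolk sac and the opposite way in the embryo region, and the difference in that stage or cell type was not tested. Of all tested genes, 13.5% had such an arrangement between stages in HE, 4.41% between HE and EC at E9.5 and 3.79% at E10.5. Between stages in HE, Tcf15 gave -1.46 in the yolk sac and +0.38 in the embryo region, a difference of -1.84. Tbx1 gave -0.28 and +1.05, a difference of -1.33. Foxc1 gave -0.38 and +0.68, a difference of -1.05. Twist1 gave -0.67 and +0.31, a difference of -0.97. These 4, and the value of Meox1 that follows, rest on the E10.5 yolk sac HE libraries, whose endothelial markers were low. Between HE and EC, Meox1 at E10.5 gave -0.25 in the yolk sac and +0.57 in the embryo region, a difference of -0.83, with yolk sac levels of at most 0.389 FPKM at that stage. Pax3 at E9.5 gave -0.12 and +0.60, a difference of -0.72, with yolk sac levels of at most 0.217 FPKM.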

How the results depend on the processing

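Each member and comparison was refitted under every alternative that gave a value, 2390 values over 112 results. Without both E10.5 yolk sac HE libraries there is no value for the site difference in E10.5 HE, HE against EC in the E10.5 yolk sac or the stages of yolk sac HE, and fits to the compared groups alone were not run where those are all groups (the site comparison over all settings and both interactions with site). Of these values, 2314 kept their direction and side of the threshold, 22 lost the threshold, 17 gained it and 37 changed sign, none of these with a value over 0.35 in size in the original fit. In the site comparison over all settings, the 7 members stayed called under every alternative run, with 5967 to 7771 of all genes called. With a pseudocount of 0.1, the members called in HE against EC of the E10.5 yolk sac numbered 2 (Tcf15 and Tbx1) in place of 1, and those called between stages in embryo EC and in embryo HE 0 in place of 1. With the compared groups alone, those 3 counts were 0, Meox1 in E9.5 EC (adjusted p = 0.0854) and Twist1 in E10.5 EC (adjusted p = 0.0520) lost their site call, and Tbx1 gave adjusted p of 0.114 and 0.147 between stages. Leaving out 1 library at a time, the count was 0 to 1 in HE against EC of the E10.5 yolk sac and in all 4 stage comparisons, and 1 to 4 in the interaction of site and stage. Meox2 in E10.5 EC passed the threshold with no filter on low values (0.0425) and without E9.5 embryo HE replicate 1 or 2 (0.0449 and 0.0447). A pseudocount of 0.1 turned Foxc1 in the interaction of site and cell type to -0.0044 and Meox2 in that of site and stage to 0.247. Values near 0 changed sign without single libraries: HE minus EC of Meox2 ranged from -0.0163 to 0.509 at E9.5 and from -0.0106 to 0.312 at E10.5 in the embryo region and of Meox1 from -0.32 to 0.58 in the E9.5 yolk sac, and E10.5 minus E9.5 in the embryo region of Twist1 in EC from -0.54 to 0.29 and of Meox1 in HE from -0.0847 to 0.297. In yolk sac EC, E10.5 minus E9.5 ranged from -0.7975 to 0.0983 for Meox1 and from -0.1497 to 0.7118 for Tcf15. The interaction with site ranged from -0.0634 to 0.3256 for Foxc1 (cell type) and from -0.2537 to 0.0089 for Meox2 (stage). Apart from what the settings' own construction shows (fewer samples or genes), the cause was not tested.

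Same-numbered libraries deviated together above a correlation of 0.1 in 8 of 28 pairs of groups (-0.261 to 0.380), so the numbers were not taken as pairs. With the replicate number as a block, Tcf15 was called between stages in yolk sac HE (adjusted p = 0.0267, 1 member in place of 0) and in the interaction of site and stage (0.0285, 2 members in place of 1); no other member call changed.

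Counts over all genes moved more. HE against EC in the embryo region ranged from 4 to 58 genes at E9.5 (originally 22) and 0 to 94 at E10.5 (29), and in the yolk sac from 0 to 11 (2) and 1 to 2625 (1335). Between stages the range was 3 to 285 in embryo EC (237), 7 to 327 in embryo HE (204), 0 to 492 in yolk sac EC (174) and 0 to 1757 in yolk sac HE (283). Between sites it was 459 to 1763 in E9.5 EC (1441), 873 to 2115 in E9.5 HE (1816), 2364 to 4586 in E10.5 EC (4111) and 1598 to 5336 in E10.5 HE (4910). The interactions ranged from 0 to 391 for site and cell type (15), 131 to 1757 for site and stage (745) and 2 to 27 for cell type and stage (3). Median ratio scaling turned the split of higher and lower calls from 1886 and 2225 to 2177 and 1595 in E10.5 EC, from 1811 and 3099 to 2343 and 1952 in E10.5 HE, from 126 and 48 to 172 and 19 and from 129 and 154 to 266 and 90 between stages in yolk sac EC and HE, and from 401 and 344 to 534 and 211 for site and stage. It moved the median of all genes by 0.149 between stages in yolk sac HE and by 0.109 for site and stage. With 2 libraries a group and unknown depth, values under about 1 FPKM are the least certain.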
